A study of Mus musculus with 5 samples.

Results

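The acetyltransferase genes described here are Ep300, Crebbp, Kat2a, Kat2b, Kat5, Hat1, Ncoa1 and Ncoa3, 8 of the 22380 protein-coding genes of the GENCODE vM1 annotation of the mouse genome (mm9). Ep300 brought this family into view because it carries an H3K9ac event of high score that is listed in DOP-treated cells only, 279 bp from an event of untreated cells. The genes were thus chosen by the event scores and positions of both lists, and their values are given as a description, without a test. An event belonged to a gene when its called position lay within 10 kb of any annotated transcript start of that gene. By this rule the 8 genes held 31 of the 34286 events listed for DOP-treated cells and 29 of the 33355 events listed for untreated cells.

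STHdh Q111 cells are mouse striatal progenitor cells, of the C57BL/6 strain per the labels, that are kept at a permissive temperature in medium with G418 and carry mutant huntingtin with an expanded glutamine tract on both alleles (STHdhQ111/Q111). DOP-treated cells (2 samples) received 4 mM 4-deoxypyridoxine hydrochloride, an inhibitor of the sphingosine-1-phosphate-degrading enzyme SPL, for 24 h. Untreated cells (2 samples) received the vehicle, and both groups were in serum-free medium and carried the same genotype, so serum deprivation and mutant huntingtin are common to every value below. An IgG sample of the same cells (1 sample) was not analysed here, and neither were Q7 cells with normal huntingtin. One list of events was deposited for each condition, each event with a position, an interval of 200 bp around it and a score.

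The lists hold no value for a single sample, so no score or count below has an error between replicates, and no difference between the conditions could be tested. The meaning of the score is not given in the sources used here and the depth of the samples is unknown. Scores had medians of 418.7 (DOP-treated) and 399.8 (untreated) and minima of 23.0 and 21.0. Single scores were whole numbers for only 43.1% and 42.3% of events. After events within 1 kb of the next had been chained into clusters, however, the scores of 98.2% of the DOP-treated clusters of several events with a score that is not whole summed to within 0.15 of a whole number (8053 of 8203), and in the untreated list this held for 98.3% (7913 of 8051). Sums over neighbouring events were thus nearly always whole where single scores were not, and the scores of a gene are therefore also given as their sum. Of the markers of neural progenitors, Nes, Sox2 and Pax6 held no event within 10 kb of a start in either list, and Vim held 3 DOP-treated and 4 untreated events. Among the ventral forebrain and striatal markers reported, Foxp1, Dlx1 and Ppp1r1b held events in both lists, Dlx2 in the DOP-treated list only, and Gsx2 and Bcl11b in neither. Of the markers of other cell types, Col1a1 (fibroblasts) held 5 events in each list, Col1a2 (fibroblasts) 2 DOP-treated and 1 untreated, Aif1 (microglia) 4 and 5, and Mbp (oligodendrocytes) 2 and 0. Gfap and Aqp4 (astrocytes), Olig2 (oligodendrocytes) and Itgam (microglia) held none.

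Histone acetyltransferases transfer the acetyl group of acetyl-CoA to lysines of histone tails, which loosens chromatin and provides binding sites for bromodomain proteins. H3K9ac, the mark measured here, is concentrated at the starts of active genes, so an event at one of these genes reports acetylation of the chromatin at a gene for an acetyltransferase and not the activity of its enzyme. Ep300 and Crebbp encode the closely related coactivators p300 and CBP. Kat2a and Kat2b encode GCN5 and PCAF, which are known for acetylating H3K9 as the catalytic subunits of the SAGA and ATAC complexes. Kat5 encodes TIP60 of the NuA4 complex, Hat1 the enzyme that acetylates newly made histone H4, and Ncoa1 and Ncoa3 coactivators of nuclear receptors that bind p300 and CBP.

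The finding at Ep300 concerns where the called positions lie within its CpG-rich start region. The 30 bases at each of the 5 called positions around the starts of Ep300 are shown first, from the mm9 genome on the plus strand, which is the strand of the gene, with CpG dinucleotides in capitals. They allow the position listed in DOP-treated cells only to be compared with the positions on either side.

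Ep300, DOP-treated event, chr15:81416068-81416097: agccCGggcCGgCGtCGaCGcctaaggggg
Ep300, untreated event, chr15:81416132-81416161: ctctgccCGcCGtcCGaggCGgccccCGag
Ep300, DOP-only event, chr15:81416411-81416440: ctgCGCGatgtgaggCGgcccCGgCGccag
Ep300, untreated event, chr15:81416724-81416753: gcCGtggCGggctggggactgCGtctgtag
Ep300, DOP-treated event, chr15:81416818-81416847: cctccCGgcctggtttaggccCGgcccctc

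All 5 stretches lie in 5′ UTR sequence of an annotated Ep300 transcript, and the DOP-only stretch holds 5 CpG, as do both stretches upstream of it, whereas the stretches downstream hold 3 (untreated) and 2 (DOP-treated). The flank of the region differs in base composition. The DOP-treated event farthest upstream, which has an untreated counterpart 22 bp away and lies outside the annotated gene, covers the following 200 bases with 5 CpG and a GC content of 43.5%.

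Ep300, upstream event, chr15:81415196-81415395: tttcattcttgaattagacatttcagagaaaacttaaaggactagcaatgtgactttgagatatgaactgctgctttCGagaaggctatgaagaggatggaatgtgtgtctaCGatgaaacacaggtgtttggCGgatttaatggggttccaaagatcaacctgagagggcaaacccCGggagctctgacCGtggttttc

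Ep300 (ENSMUSG00000055024.5) lies on the plus strand of chromosome 15 from 81415781 to 81482507. The annotation gives it 2 starts, that of the short transcript Ep300-202 at 81415781 and that of the long transcript Ep300-201 at 81416644, which is also the RefSeq start. In DOP-treated cells the 5 events had scores of 622.0 at position 81415295, 3511.5 at 81416082, 2139.9 at 81416425, 1404.6 at 81416832 and 1474.0 at 81417224. In untreated cells the 5 scores were 531.0 at 81415317, 4908.0 at 81416146, 2238.0 at 81416738, 1276.9 at 81417161 and 653.1 at 81417526. Both lists thus had 5 positions, and the highest untreated event alone held 51.1% of the gene's summed untreated score. The highest DOP-treated event held 38.4% of the DOP-treated sum.

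The DOP-only event at 81416425 lay 219 bp upstream of the Ep300-201 start and in the 5′ UTR of Ep300-202. Its score stood at percentile 99.3 of the DOP-treated list and ranked 2 among the 6861 events of that list that overlap no untreated interval. The intervals of this event and of the nearest untreated event are separated by 79 bp, so that the call of a DOP-only event rests on a distance of 279 bp between called positions. On both sides of it the DOP-treated scores were below their untreated counterparts, 3511.5 against 4908.0 upstream and 1404.6 against 2238.0 downstream. Added together, the 3 DOP-treated events at these positions scored 7056.0 and the 2 untreated events 7146.0, a ratio of 0.987. Centred on the median of all genes, as described below, the log2 ratio was -0.12. The added event therefore came with no higher sum around the start, as the plot of events at Ep300 and Crebbp shows.

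Downstream, the last DOP-treated event, in a coding exon of Ep300-202 and an intron of Ep300-201, scored 1474.0 against 1276.9. Beyond it the untreated list alone had an event of 653.1 at 81417526, 302 bp from the nearest DOP-treated position, in an intron of Ep300-201 and the 3′ UTR of Ep300-202. Over all events the sum for Ep300 was 9152.0 in DOP-treated and 9607.0 in untreated cells. Both sums are high, at percentile 99.6 of the 12375 genes with an event in both lists for the level of the 2 lists, and at percentile 99.7 when the sum was divided by the length of the window searched, with 438.7 per kb in DOP-treated and 460.5 per kb in untreated cells. The DOP-only event through which Ep300 was chosen is part of its DOP-treated sum, so this rank is not independent of the choice.

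**Figure D1:**
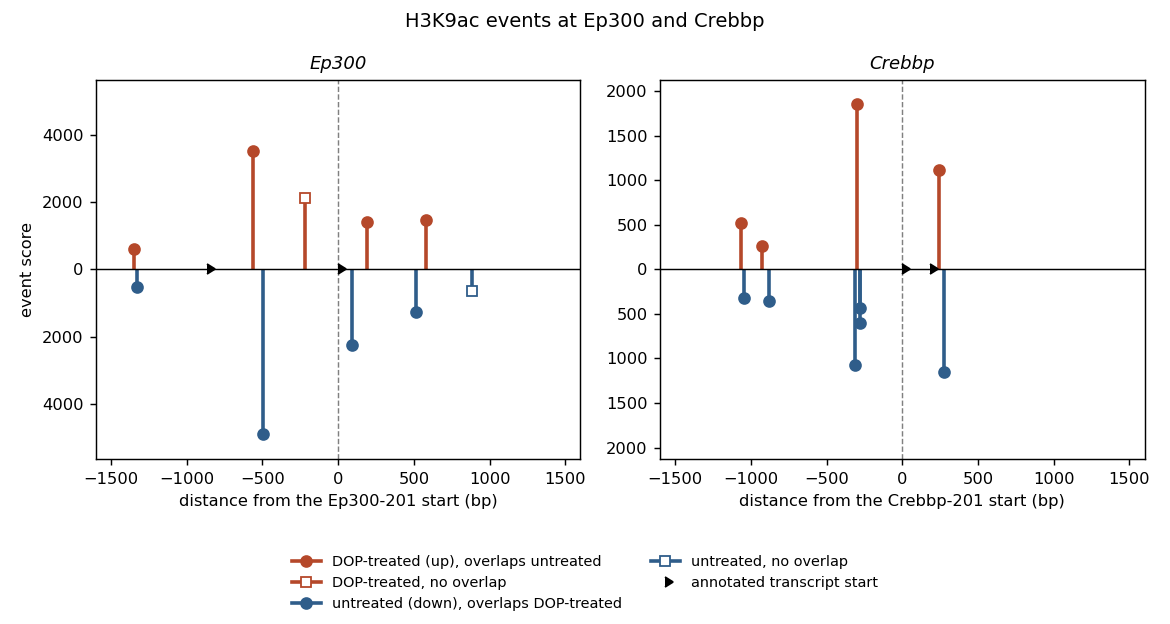
Scores of the H3K9ac events at Ep300 (left) and Crebbp (right) against the distance in bp from the start of the named transcript in the direction of transcription, with DOP-treated events drawn upward, untreated events downward and open squares for events that overlap no interval of the other list. The Ep300 DOP-only event of 2139.9 stands between positions where both lists have an event, and at Crebbp 1 DOP-treated event of 1853.3 faces 3 untreated events.

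Crebbp lies on the minus strand of chromosome 16 from 4084048 to 4213404, with starts at 4213404 and 4213223. Its DOP-treated list had 4 events, with scores of 1112.7 at 4213163, 1853.3 at 4213703, 264.6 at 4214328 and 520.4 at 4214469. The untreated list had 6, with scores of 1153.0 at 4213128, 432.6 at 4213681, 596.0 at 4213682, 1069.4 at 4213718, 351.9 at 4214282 and 316.1 at 4214452. Every event of Crebbp overlapped one of the other list, in contrast to Ep300. The 3 untreated events upstream of the start, of which a pair had neighbouring positions 1 bp apart, all faced the single DOP-treated event at 4213703, and summed to 2098.0 against 1853.3. Here the untreated list had more positions than the DOP-treated list in the same stretch, the opposite of the DOP-only event at Ep300. Positions within 10 bp of the next in the same list occurred 12 times among all DOP-treated and 17 times among all untreated events.

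The interval of the Crebbp event upstream of the start is the most CpG-rich of the DOP-treated events of the 8 genes, with 39 CpG in 200 bases and a GC content of 84.0%, and is shown from the minus strand, the strand of the gene, with CpG in capitals.

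Crebbp, event upstream of the start, chr16:4213604-4213803: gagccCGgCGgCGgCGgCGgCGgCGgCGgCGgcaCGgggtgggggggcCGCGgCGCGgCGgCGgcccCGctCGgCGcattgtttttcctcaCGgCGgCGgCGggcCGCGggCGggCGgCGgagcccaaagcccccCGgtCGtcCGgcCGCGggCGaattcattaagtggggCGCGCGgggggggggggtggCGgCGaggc

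The event at the Crebbp start region inside the gene scored 1112.7 in DOP-treated and 1153.0 in untreated cells, with positions 35 bp apart. The pair of events about 1 kb upstream summed to 785.0 in DOP-treated and 668.0 in untreated cells. For the whole gene the sums were 3751.0 and 3919.0, a ratio of 0.957.

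Kat2a is a short gene on the minus strand of chromosome 11, from 100566060 to 100573779, and carried the lowest sums of the 8 genes. Its 2 DOP-treated events scored 326.3 at 100573463 and 654.7 at 100573568, on either side of the main untreated event of 796.7 at 100573516. A second untreated event, of 123.3, lay in an intron at 100573094 and overlapped no DOP-treated interval. The sums were 981.0 in DOP-treated and 920.0 in untreated cells.

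Kat2b lies on the plus strand of chromosome 17 from 53706186 to 53812045. Its 3 events at the main start had counterparts in both lists 35 to 58 bp apart. DOP-treated scores were 490.1, 794.1 and 637.7 in the order of the gene, and untreated scores were 445.6, 594.7 and 652.6, so that the middle event differed most. A DOP-only event of 85.0, at percentile 8.10 of its list, lay in an intron at 53726925 and 19776 bp from the nearest untreated position. The summed scores of Kat2b were 2006.9 and 1692.9.

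Kat5 lies on the minus strand of chromosome 19 from 5603017 to 5610050, and the 10 kb window around its starts also reaches Rnaseh2c, which encodes a subunit of ribonuclease H2. The events nearest to the start of Kat5 itself were 1146.2 at 5609937 and a DOP-only event of 448.8 at 5609540 in an intron in DOP-treated cells, and 1056.0 at 5609953 and an untreated-only event of 135.0 at 5610595 upstream of the gene in untreated cells. The sum at the Kat5 start was 1595.0 in DOP-treated and 1191.0 in untreated cells, a ratio of 1.34. At the Rnaseh2c start the scores were 1448.8 and 725.2 against 1516.3 and 641.7, with sums of 2174.0 and 2158.0. With both starts together the ratio of Kat5 was 1.13, so that this gene's value depends on whether the Rnaseh2c events are counted.

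Hat1 lies on the plus strand of chromosome 2 from 71227015 to 71279679 and showed the largest difference in the number of events, 5 in DOP-treated and 2 in untreated cells. The main untreated event scored 1126.0 at 71227604 in an intron. A pair of DOP-treated events overlapped it, with 440.9 at 71227520 and 691.5 at 71227622, and their sum was 1132.4. Downstream an event of 321.7 at 71227830 faced one of 283.0 at 71227937. DOP-only events were listed at 71226948, with a score of 122.0, and at 71228142, with a score of 141.9. The pair thus had nearly the same sum, without centring, as the untreated event it overlapped. The higher total of Hat1 in DOP-treated cells, 1718.0 against 1409.0, came from the smaller events on either side.

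Ncoa1 lies on the minus strand of chromosome 12 from 4247363 to 4484060. In both lists it had an event in the 5′ UTR, of 1100.5 in DOP-treated and 986.9 in untreated cells, and an intronic event downstream of it, of 517.5 and 526.1. These events summed to 1618.0 and 1513.0. An untreated-only event of 260.0 at 4484410, 350 bp upstream of the start, raised the untreated sum to 1773.0, above the DOP-treated one.

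Ncoa3 lies on the plus strand of chromosome 2 from 165818136 to 165898742. At its main start the scores were 1760.1 and 731.9 in DOP-treated and 1715.1 and 803.9 in untreated cells, and an untreated-only event of 198.0 followed at 165819320. Upstream of the gene, at 165812721, an event of 142.0 in DOP-treated cells faced 68.0 in untreated cells. A pair of DOP-only events of 41.7 and 30.3 lay at the other end of the gene. Of all annotated transcript starts of protein-coding genes, that of a transcript of Sulf2, which encodes an extracellular sulfatase, was nearest to them. They also lay within 10 kb of the start of Ncoa3-004, a transcript with a retained intron. Ncoa3 was also the single gene of the 8 with events in its body more than 10 kb from any start, with scores of 348.0 and 269.0 in DOP-treated and of 286.0, 188.2 and 64.8 in untreated cells. The summed scores of Ncoa3 near its starts were 2706.0 and 2785.0.

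**Figure D2:**
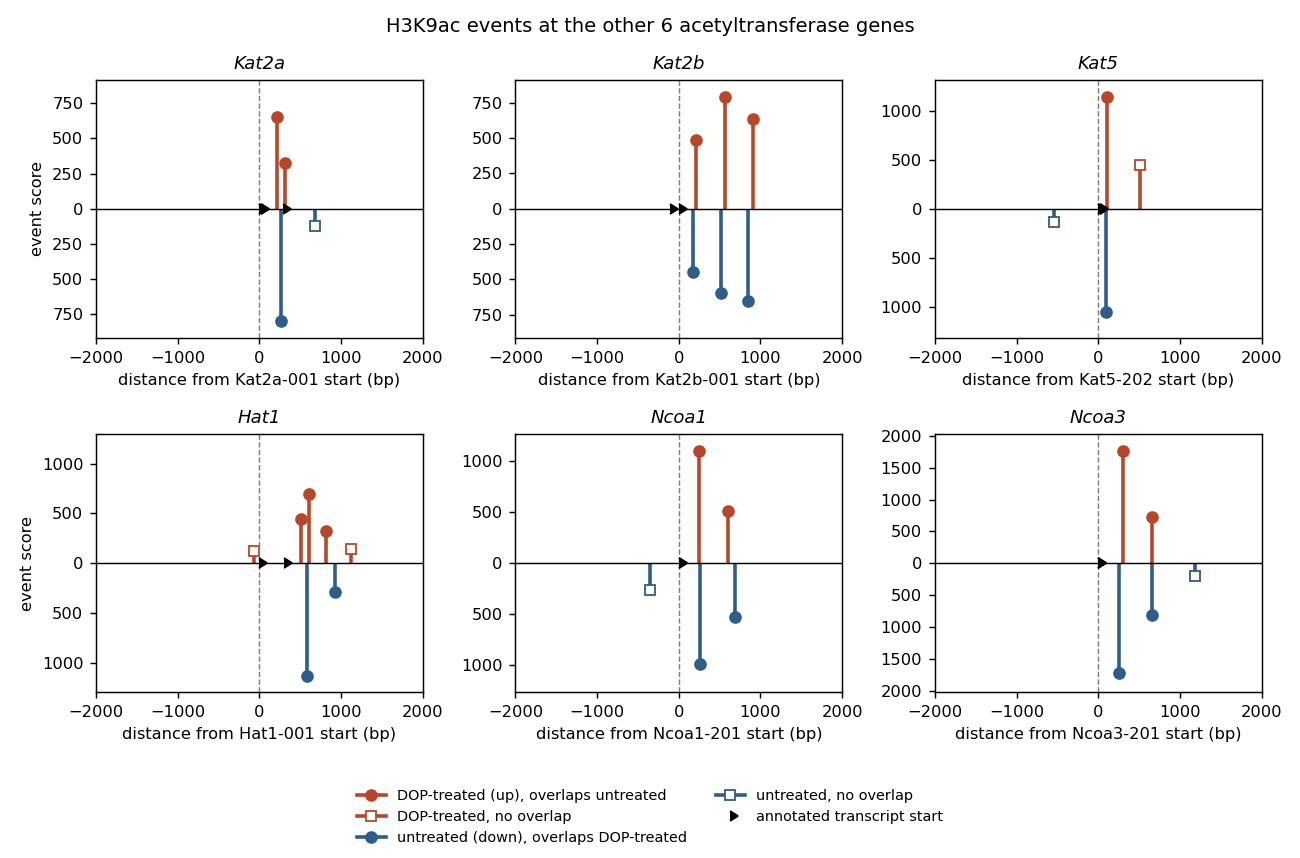
Scores of the H3K9ac events of the other 6 genes within 2 kb of the named transcript start, in bp in the direction of transcription, with DOP-treated events upward, untreated events downward and open squares for events without overlap in the other list; events farther away, such as those at the Rnaseh2c start, are outside the panels. At Hat1 2 DOP-treated events face the untreated event of 1126.0, and the open squares reach at most 448.8, at Kat5.

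Of the 31 DOP-treated events of the 8 genes, 7 (22.6%) overlapped no untreated interval, against 16.2% of all DOP-treated events within 10 kb of a start. Of the 29 untreated events, 5 (17.2%) overlapped no DOP-treated interval, against 13.3% of all. These shares used the same lists that chose Ep300, and nothing is read from the differences. All 5 untreated-only events and 4 of the 7 DOP-only events had a position of the other list within 1 kb, and thus lay in a region where both lists hold an event. Some of them were additional to events that were paired between the lists, such as the untreated-only event upstream of Ncoa1. The remaining 3 DOP-only events, in the Kat2b intron and near Sulf2, had scores of 85.0, 41.7 and 30.3.

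Most events listed for 1 condition alone had low scores. The median score percentile of the DOP-only events of the 8 genes was 13.0, against 73.9 for their overlapping events, and among untreated events these medians were 24.9 and 76.0. The same ordering held over all events within 10 kb of a start, with 22.0 and 61.3 in the DOP-treated and 22.6 and 59.7 in the untreated list. Base composition followed the same division. The 7 DOP-only events had a GC content of 40.0% to 76.5%, with a median of 51.5%, and the 5 untreated-only events one of 38.0% to 58.0%, so that only the Ep300 event exceeded the latter value. In contrast, the overlapping events had medians of 69.8% and 70.0%. Among all events within 10 kb of a start the medians were 53.0% for DOP-only, 51.5% for untreated-only and 62.5% for the overlapping events of either list, and 28.7% of the DOP-only events exceeded 58.0%. The high score of the Ep300 event was part of the rule that chose the gene.

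To show this contrast, the intervals of the untreated-only events upstream of Kat5 and of Ncoa1 are printed from the minus strand, the strand of both genes, again with CpG in capitals. They hold 4 and 8 CpG, with a GC content of 38.0% and 58.0%, and can be set beside the Crebbp interval.

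Kat5, untreated-only event, chr19:5610496-5610695: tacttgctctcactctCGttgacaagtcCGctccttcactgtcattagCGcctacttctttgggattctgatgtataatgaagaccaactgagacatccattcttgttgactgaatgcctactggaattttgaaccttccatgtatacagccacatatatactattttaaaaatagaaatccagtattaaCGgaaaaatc
Ncoa1, untreated-only event, chr12:4484311-4484510: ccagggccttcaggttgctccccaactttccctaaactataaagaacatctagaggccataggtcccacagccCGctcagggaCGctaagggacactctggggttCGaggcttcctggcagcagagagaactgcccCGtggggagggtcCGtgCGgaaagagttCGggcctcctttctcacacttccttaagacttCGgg

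**Figure D3:**
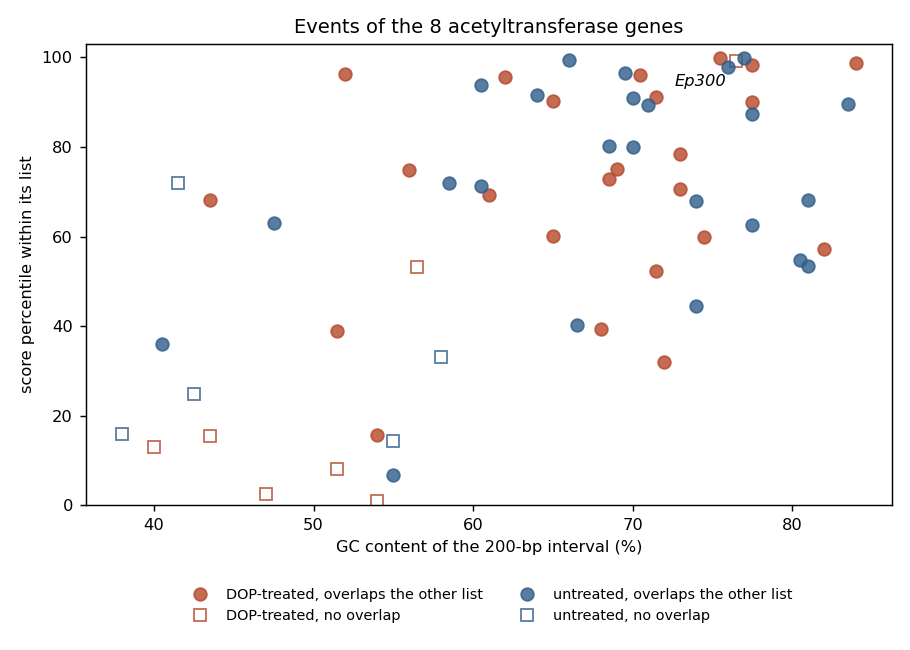
Score percentile of each event of the 8 genes within its own list against the GC content of its 200-bp interval in percent, with filled circles for events that overlap the other list and open squares for those that do not. The DOP-only event of Ep300, at 76.5% and percentile 99.3, stands among the filled circles, whereas the other open squares lie at 58.0% or below.

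In position, 24 of the 31 DOP-treated and 24 of the 29 untreated events lay within 1 kb of a start, and 23 and 19 lay downstream of it. The events of the 8 genes had a median score percentile of 69.4 (DOP-treated) and 71.3 (untreated), against 55.3 and 55.1 for all events within 10 kb of a start. The median GC content of their intervals was 68.0% and 68.5%, against 60.5% and 61.0%. By annotation, 10 DOP-treated events lay in introns, 6 in coding exons, 5 in 5′ UTRs, 1 in a 3′ UTR and 9 outside the gene, and 9, 4, 4, 1 and 11 of the untreated events did so. Overlapping events of the 8 genes had called positions a median of 46 bp apart seen from the DOP-treated list, and 33 bp over all overlapping events of that list. Seen from the untreated list these medians were 39 bp and 34 bp.

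All 8 genes had an event in both lists, as did 55.3% of all protein-coding genes. The DOP-treated list held more events at 3 of them (Kat2b, Hat1 and Ncoa3), fewer at 2 (Crebbp and Ncoa1) and equal numbers at Ep300, Kat2a and Kat5, against 30.5% of the genes with events in both lists that had more and 27.7% that had fewer. The summed scores were then compared gene by gene as the log2 ratio of DOP-treated over untreated. Over all 12375 genes the median of this ratio was 0.10, and each gene's ratio was centred on that median. The plain ratios of sums given with the single genes above were not centred. Past 1.5-fold after centring, 3.83% of all genes were higher and 2.19% were lower in the DOP-treated list, and of the 8 acetyltransferase genes 0 were higher and 0 were lower.

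Centred ratios of the 8 genes reached from -0.23 for Ncoa1 to 0.18 for Hat1, with a median of -0.08, and 90% of all genes lay between -0.41 and 0.53. Ep300 had -0.17, at percentile 21.1 of all genes, and Crebbp -0.17, at percentile 22.0. For Ep300 and Crebbp the range was narrower among genes with a mean sum of both lists within 1.5-fold of that of the gene. For Ep300 90% of these 233 genes lay between -0.35 and 0.18, and for Crebbp 90% of 2803 genes between -0.38 and 0.29. For Kat2a, with the lowest sums, 90% of 3534 such genes lay between -0.41 and 0.53, the range over all genes. Ncoa3 had -0.14, Kat2b 0.14 and Kat5 0.07. Kat2a had -0.01, which became 0.09 without centring and 0.01 with each list scaled to its total score, while no other of the 8 genes changed sign with the scaling. With only the higher-scoring 50% of each list, Crebbp (0.04) and Ncoa1 (0.03) were higher and Hat1 (-0.06) was lower in the DOP-treated list, the opposite of their values over all events. Counting each event only for its nearest gene moved Kat5 from 0.07 to 0.32 through the Rnaseh2c events. The Ep300 value stayed between -0.18 and -0.07 under the 8 alternatives computed.

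**Figure D4:**
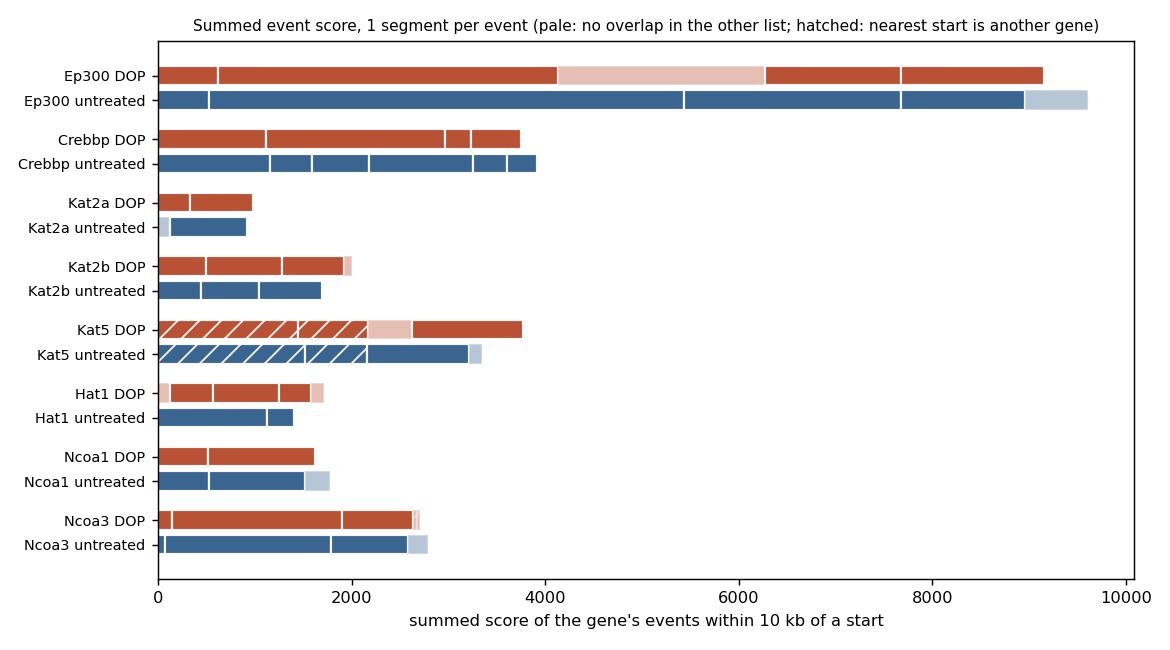
Summed event score of each gene within 10 kb of its starts in the DOP-treated (red) and untreated (blue) list, as bars from 0 with 1 segment for each event; pale segments are events without overlap in the other list and hatched segments lie nearest to another gene. The bars of a gene end close together at all 8 genes, from 981.0 and 920.0 at Kat2a to 9152.0 and 9607.0 at Ep300, although they are divided into different segments.

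**Figure D5:**
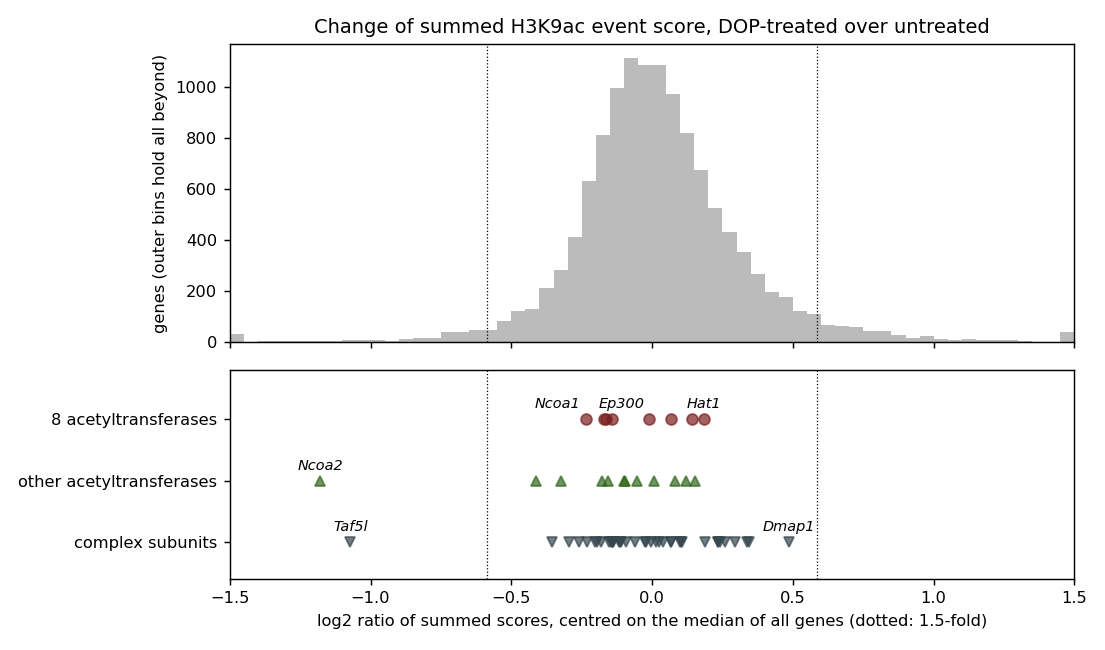
Upper panel, number of genes in each bin of the centred log2 ratio of summed scores, DOP-treated over untreated, for all 12375 genes with events in both lists. Lower panel, the same ratio for each of the 8 acetyltransferase genes, of the 12 other acetyltransferase genes and of 39 complex subunit genes, with dotted lines at 1.5-fold; the 8 genes lie between -0.23 and 0.18, and Ncoa2 and Taf5l lie below the lower line.

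Single pairs of events differed more than the sums. Of the 22 pairs of nearest overlapping events at the 8 genes, 10 were higher and 12 lower in the DOP-treated list after centring on the median of all 25377 pairs, which was 0.13. The lowest of the 22 were the main event of Hat1 (-0.83, at percentile 4.14 of all pairs) and the Ep300 event just downstream of the Ep300-201 start (-0.80, percentile 4.47), followed by the strongest Ep300 event (-0.61, percentile 7.56). At each of these the DOP-treated list had a further event close by. The highest were the event upstream of Ncoa3 (0.93, percentile 96.6), of low score in both lists, and the Crebbp event upstream of the start (0.67, percentile 92.8), where the untreated list had the further events.

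The score-weighted mean position of a gene's events within 1.5 kb of a start was also compared. For Ep300 it lay 59.1 bp farther upstream in DOP-treated cells, and for Crebbp 48.5 bp. The largest shift was that of Kat5, 200.5 bp downstream, where the DOP-only event lay inside the gene and the untreated-only event upstream of it. Over the 11191 genes with such a position in both lists the median absolute shift was 41.1 bp.

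A pattern like that of Ep300, a DOP-only event at or above percentile 90 of its list with an untreated position within 500 bp, was found for 25 events near 37 genes. Of all 41 DOP-only events at or above that percentile, 27 had an untreated position within 500 bp, and in the untreated list 28 of 57 had a DOP-treated one. Besides Ep300 the highest such scores were 2584.0 at Dennd1b, which encodes a regulator of RAB35 in endocytosis, 1803.3 at Cdk13, a cyclin-dependent kinase that acts on RNA polymerase II, and 1800.6 at Gas1, a membrane protein that binds Hedgehog ligands. The sums at these genes went different ways. At Dennd1b it was 6157.0 in DOP-treated and 3447.2 in untreated cells (centred log2 ratio 0.73), at Gas1 4184.0 and 2555.0 (0.61), and at Cdk13 4571.0 and 6442.0 (-0.60). Of the 37 genes 28 were higher in the DOP-treated list and the median was 0.13, whereas Ep300 was among those that were lower. Past 1.5-fold 3 of the 37 were higher, against 3.83% of all genes, and in the lower direction Cdk13 was past it, against 2.19% of all genes. Because the 37 genes share 25 events, the same scores enter these counts more than once, and nothing is read from them. The rule asks for a DOP-only event, so that these sums are not independent of it.

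The other genes of the family were taken as a list. All 12 other acetyltransferase genes, among them Kat6a, Kat6b, Kat7 and Kat8 of the MYST family, had events in both lists. Of these, 4 were higher and 8 lower, with a median of -0.10, and past 1.5-fold 0 were higher and 1 was lower. That gene was Ncoa2, the third member of the coactivator family of Ncoa1 and Ncoa3, with 1 DOP-treated event of 1818.0 on chromosome 1 at 13363565 and 4 untreated events of 1451.0, 1477.0, 707.2 and 199.8. The DOP-treated event overlapped that of 1477.0, and the other untreated events lay 473 to 1024 bp from it. The sums of Ncoa2 were 1818.0 and 3835.0, a centred ratio of -1.18 at percentile 0.40 of all genes.

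Of 40 listed subunits of acetyltransferase complexes 39 were found by symbol, all with events in both lists, 17 higher and 22 lower with a median of -0.02. Past 1.5-fold 0 were higher and 1 was lower, Taf5l of the SAGA complex. It had 1 DOP-treated event of 964.0 and untreated events of 903.3, 603.7 and 380.0 that summed to 1887.0. The untreated event of 380.0 lay nearer to a start of another gene than to a start of Taf5l. The highest subunits were Dmap1 of the NuA4 complex, with 1074.0 in DOP-treated and 714.0 in untreated cells (0.49), and Phf15, a partner of the MYST enzymes, with 4073.0 and 2988.0 (0.34). Both lists of genes therefore lay on either side of the median of all genes, as did the 8 genes.

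RefSeq promoters, which reach from upstream of a start to shortly after it in the GRCm38.p6 assembly, were at hand for 7 of the 8 genes, in 9 sequences, all but Ncoa3. Their median GC content was 66.7% with 29 CpG, against 52.7% and 7 CpG for all 32851 promoters. The GC box GGGCGG was read on either strand in 5 of the 9, those of Crebbp, Ep300, Hat1, Kat5 and Ncoa1, and in 35.7% of all promoters. The ETS motif CCGGAAG was in 2 (Hat1 and Kat5) against 8.86%, CCAAT in 3 (Hat1, Kat2b and Kat5) against 37.4%, and TATAAA in 0 against 13.6%. The letters TGACG, the shorter form of the cAMP response element through which CREB recruits CBP and p300, were in 4 (Kat2a, Kat2b and Kat5) against 20.8%, and the full element TGACGTCA, which contains them, in 0 against 1.79%. In the event intervals GGGCGG was in 14 of 31 DOP-treated and 13 of 29 untreated intervals of the 8 genes, against 30.7% and 31.4% of all intervals within 10 kb of a start. TGACG was in 4 of 31 and 2 of 29, against 14.2% and 14.4%. CCGGAAG was in 0 and 0, against 3.68% and 3.91%, and CCAAT in 1 and 1, against 13.6% and 13.1%.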

How the data were processed

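H3K9ac ChIP-seq lists of mouse STHdh Q111 cells were used, 1 list for DOP-treated and 1 for untreated cells. Groups came from the sample labels. The paper's methods name Bowtie 2 for the alignment to mm9 and GPS for the calling of events, whereas the submitters' processing notes name BWA 0.7.10. How the samples of a condition, and the IgG sample, entered the call and which threshold was used are not given in the sources used here. The authors deposited positions in mm9 and a score for each event, with no normalization stated. Both deposited lists are longer than the numbers of peaks stated in the paper's methods, and how they relate is not given in the sources used here. The chromosome lengths of the mm9 assembly were compared with both lists, and 0 events ran past an end.

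Events were linked to genes within 10 kb of any transcript start of GENCODE vM1, and overlap meant at least 1 bp shared by intervals. Scores were summed per gene, and the log2 ratio of DOP-treated over untreated was centred on the median of all genes with an event in both lists. A gene was counted as past 1.5-fold on this scale. With 1 list per condition no test was run. Named genes were the 8 genes, genes whose start lay nearest to one of their events, the 3 highest-scoring genes with the Ep300 pattern, and of the other acetyltransferases and subunits those past 1.5-fold and the 2 highest and 2 lowest. Some marker genes are not reported here. These genes, lists and rules were chosen with earlier results of these data known. Alternatives were other windows, rules for overlap, score limits, scalings, and linking to the nearest gene only. The computations were checked on made-up lists of 2000 genes, in which 7 of 7 planted answers were recovered. RefSeq promoters were placed on mm9 by exact match to compare starts. Computations ran in Python 3.11.15 (numpy 2.4.6, pandas 2.3.3, pysam 0.24.0 and matplotlib 3.10.9).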

Additional observations from a re-analysis of the deposited data

How the results depend on the processing

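Of 48 counts recomputed under the alternatives, 37 stayed within 1.5 times the reported one. The 11 others concerned events without a counterpart in the other list. The 7 DOP-only events became 4 when positions within 500 bp counted as shared, 3 at 1 kb and 3 at 2 kb. After events had been chained, clusters were counted instead, and 2 DOP-treated clusters overlapped no untreated one. The pair of events near Sulf2 forms a single cluster. In a window of 1 kb around the starts there were 4 DOP-only events, and among the top 50% of events by score there were 3. One of the latter was the Crebbp event of 520.4, which is not among the 7. Its untreated counterparts fell below the score limit. The 5 untreated-only events became 3 at 500 bp, 0 at 1 kb, 0 at 2 kb, 0 after chaining and 1 among the top 50%. All 64 ratios of summed scores of the 8 genes stayed within 1.5-fold of the reported ones. The sign changed in 3 of 8 alternatives for Kat2a (range -0.35 to 0.09), in 1 of 8 for Crebbp, Hat1 and Ncoa1, and in 0 of 8 for Ep300, Kat2b, Kat5 and Ncoa3. The number of the 8 genes that were higher in the DOP-treated list was 3 as reported and 4 without centring, with scaling to the total score, in a window of 1 kb and among the top 50%. No paired analysis was possible because the lists hold 1 value per condition and none per replicate. For the same reason no replicate could be left out, and the depth behind a score is unknown.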
